A study of Mus musculus with 4 samples.

Results

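The 32 genes described here carry glucose into the cell, break it down to pyruvate and lactate, export lactate, or divert glucose carbon into the pentose phosphate pathway. They were taken by gene symbol from a table of 28334 rows, all 32 were present, and all 32 passed the filter on low values that left 13685 tested genes. The cells were regulatory T cells (Treg), a CD4+ lineage that dampens immune responses and is defined by the transcription factor Foxp3. CD4+ YFP+ cells of spleen and peripheral lymph nodes were sorted from C57BL/6 mice that had no treatment, and their poly-A RNA was sequenced. In the group called KO (n = 2 libraries) the mice were Foxp3 YFP-Cre/0 and Pdpk1 FL/FL, so that Cre made under Foxp3 could act on loxP-flanked Pdpk1 in Treg. In the group called WT (n = 2 libraries) they were Foxp3 YFP-Cre/0 and Pdpk1 +/+, with the same Cre allele. Ages, the sex and the number of animals behind a library were not given, so p-values measure only the spread between these libraries, which may be technical.

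Glycolysis splits glucose into pyruvate in a chain of cytosolic enzymes and yields ATP. Hexokinase traps glucose in the cell, phosphofructokinase commits it to the pathway, and lactate dehydrogenase reduces pyruvate to lactate, which monocarboxylate transporters export. The pentose phosphate pathway branches off after hexokinase and yields NADPH and the ribose of nucleotides. T cells raise both pathways when they are activated and divide, and PDK1, the kinase encoded by Pdpk1, lies in the PI3K, AKT and mTOR pathway that promotes glucose use. The member gene Pdk1 is a different gene, which encodes pyruvate dehydrogenase kinase 1 of the mitochondrion.

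Values are the deposited log2 normalised counts, a difference is the mean of KO minus the mean of WT, and a gene is called at an adjusted p under 0.05 in limma, adjusted over all tested genes. Pdpk1 itself was at 11.78 and 11.73 in KO and at 11.71 and 11.76 in WT, a difference of 0.02 (adjusted p = 0.612). These values show no loss of Pdpk1 RNA in KO. A value summed over a gene can keep reads of exons that Cre leaves in place, but whether this holds here was not tested. The groups are therefore named by their labels. The Treg markers Foxp3 (11.42 and 11.47 in KO, 11.42 and 11.38 in WT) and Il2ra (13.26 and 13.25 in KO, 13.03 and 13.03 in WT) were high in every library. Of 8 Treg markers, 3 were called higher in KO and 2 lower (27.1% and 20.3% of all tested genes). Lrrc32 (0.305), Ctla4 (0.245) and Il2ra (0.225, adjusted p = 0.0058) were called higher, and Ikzf4 (-0.275, adjusted p = 0.0129) was among those called lower. The deposited values of 5 B cell markers, summed on the linear scale, were 310.1 and 302.4 in KO and 381.0 and 343.9 in WT. Those of 6 myeloid markers were 236.3 and 243.0 in KO and 298.6 and 215.6 in WT. Among platelet markers, Pf4, Ppbp, Gp1bb and Gp9 were at or under a log2 value of 1 in every library. The summed 5 markers were at 32.6 and 33.0 in KO and 43.1 and 39.6 in WT. Summed NK cell markers were at 53.3 and 64.1 in KO and 75.9 and 61.9 in WT, CD8 markers at 271.0 and 285.1 in KO and 285.2 and 267.6 in WT. The 4 stroma markers summed to 2478.1 and 2627.9 in KO and 2615.5 and 2474.4 in WT, nearly all of it from Pecam1. Of the markers of these other cell types, 4 were called lower and 0 higher in KO (20.3% and 27.1% of all tested genes). Called lower were 1 of 5 tested B cell, 1 of 2 NK cell, 1 of 1 platelet and 1 of 2 stroma markers. None of the 6 myeloid and 2 CD8 markers was called. Klrb1c of NK cells, near the filter minimum at 3.34 and 3.09 in KO and 4.19 and 4.34 in WT, was 0.483-fold of WT (adjusted p = 0.00989). Cd79a of B cells was 0.651-fold (adjusted p = 0.0119), Itga2b of platelets 0.776-fold (adjusted p = 0.0247) and Col1a1 of stroma 0.597-fold (adjusted p = 0.0319). The part of these cells in the results below was not tested.

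Most of the pathway was slightly higher in KO. Of the 32 members, 18 were called higher and 5 lower in KO (23 in all), against a background of 27.1% higher and 20.3% lower (47.4% in all) among the tested genes. The median difference was 0.15 over the members and 0.015 over all tested genes, and 27 of the 32 differences were positive. Both KO libraries lay above both WT libraries for 23 members and below them for 5, against backgrounds of 39.9% and 33.1% of tested genes. In RNA from sorted bulk cells, a change in the mix of Treg subsets and a change per cell cannot be told apart. The changes were small. With a limit of 1.2-fold, 6 members were called higher (background 9.75%) and 2 lower (background 12.1%). The 6 were Hk2, Tpi1, G6pdx, Bpgm, Pgam1 and Pgk1, and the 2 were Eno3 and Pfkfb4.

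**Figure D1:**
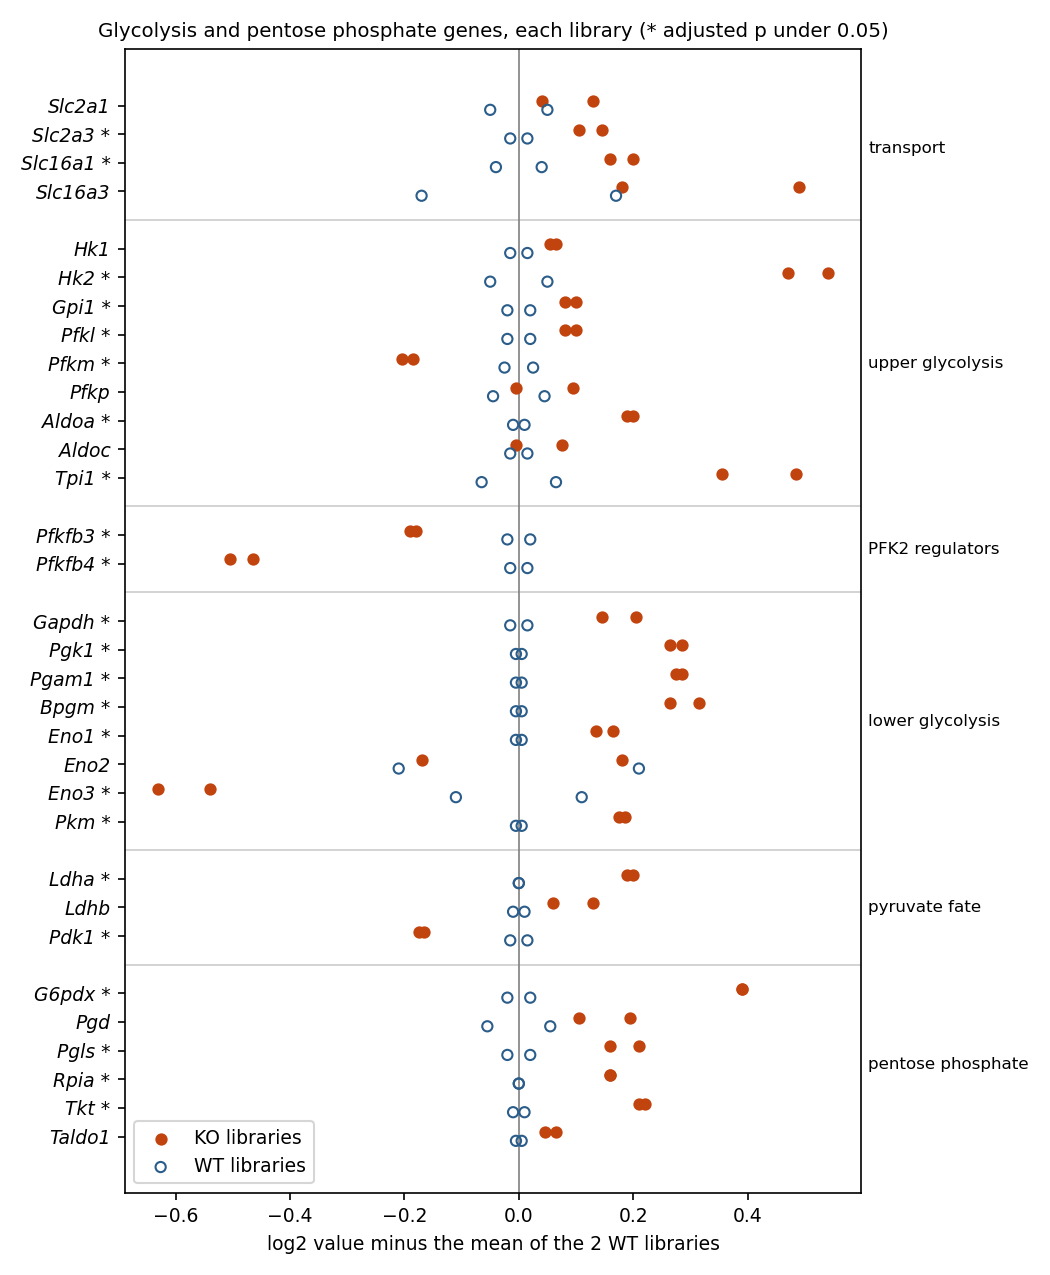
Log2 value of each of the 32 genes in each library (x axis, as the distance from the mean of the 2 WT libraries), with filled points for KO and open points for WT, grouped by step from transport at the top to the pentose phosphate pathway at the bottom; an asterisk marks an adjusted p under 0.05. KO points lie right of WT points for 23 genes and left of them for Pfkm, Pfkfb3, Pfkfb4, Eno3 and Pdk1.

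These calls carry a limit that applies to every p-value given here. The difference between the 2 KO libraries mirrored that between the 2 WT libraries, with a Pearson correlation of -0.91 across the 13685 tested genes and -0.93 across the 32 members, a description over genes that share the libraries. Libraries with mirrored deviations carry less independent information than the fit assumes, so SEs and p-values may be too small. Whether the deposited values had been adjusted for the replicate number is not given in the sources used here and was not tested, and such a step would change what every SE, p-value and spread within a group means. With the replicate number as a term, limma called 0 of the tested genes at an adjusted p under 0.05 (smallest adjusted p 0.0964; 4881 tested genes and 21 members had an unadjusted p under 0.05). At an adjusted p under 0.1 the same fit called 11 members higher (background 9.96%) and 3 lower (background 6.14%). The fit without 1 library, whichever library was left out, also called 0 (5225 to 5669 tested genes at an unadjusted p under 0.05).

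**Figure D2:**
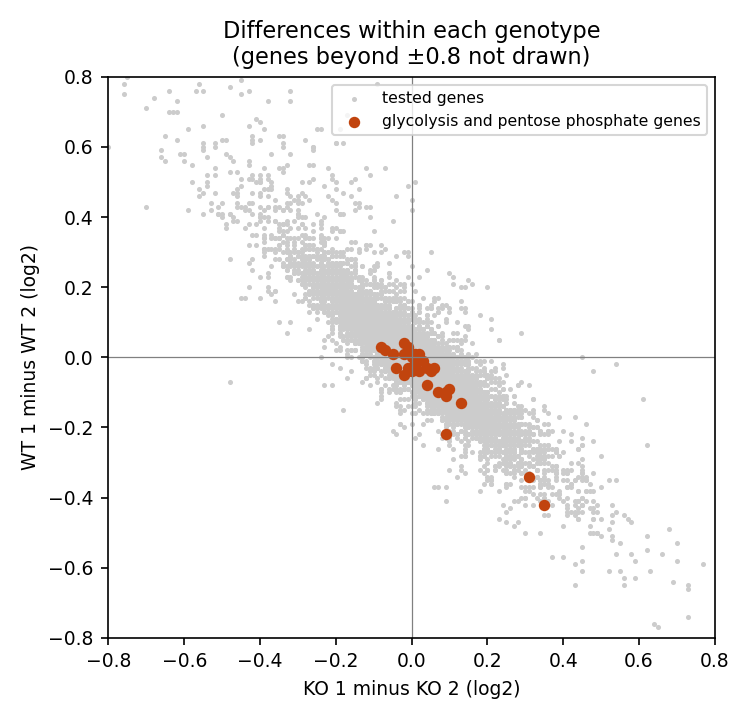
Difference between the 2 KO libraries (x axis, log2) and between the 2 WT libraries (y axis, log2) for all tested genes (grey) and the 32 members (orange). The points fall along a descending line, with a correlation of -0.91 over all tested genes.

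Transcripts of the glucose transporters differed little. Slc2a1, which encodes the glucose transporter GLUT1, was at 10.27 and 10.18 in KO and at 10.09 and 10.19 in WT. These values overlap, and the difference of 0.085 had a 95% interval of -0.07 to 0.24 (adjusted p = 0.259). Slc2a3, which encodes the high-affinity transporter GLUT3, was at 10.64 and 10.60 in KO and at 10.48 and 10.51 in WT. It was called higher, by 0.125 (SE 0.02, adjusted p = 0.0220), and the groups did not overlap. Per kb of transcript the pair stood at nearly equal levels, with Slc2a1 making up 48.4% and 47.6% of the sum in KO and 48.1% and 49.3% in WT.

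Hexokinase showed the largest rise among the members, in its inducible form. Hk2 (chromosome 6, 82725025 to 82774454, minus strand, mm10), a hexokinase that is induced in growing cells, was at 9.16 and 9.09 in KO and at 8.57 and 8.67 in WT. Both KO libraries were far above both WT libraries, and the 1.42-fold difference was called (0.505, SE 0.05, adjusted p = 0.00814). Hk1, the hexokinase of most tissues, was at 11.41 and 11.42 in KO and at 11.34 and 11.37 in WT, a difference of 0.06 that was not called (SE 0.02, adjusted p = 0.0567). Hk1 was the main form in both groups. Per kb, Hk2 made up 14.03% and 13.4% of the sum of Hk1 and Hk2 in KO and 10.2% and 10.7% in WT. The log2 value of Hk2 minus that of Hk1 was -2.25 and -2.33 in KO and -2.77 and -2.70 in WT, without overlap. With 2 libraries against 2, an exact two-sided permutation test cannot go below p = 0.333, so such differences between isozymes are given without a test.

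The 250 bases before the annotated start of 4 members, from RefSeq (GRCm38.p6), are shown to set the promoters of 2 genes that were higher in KO, Hk2 and Pgam1, beside those of 2 that were lower, Eno3 and Pfkm. They are the called members with the largest differences in each direction among those with a single window that lies wholly outside the gene in GENCODE M21 too. Pfkm has other annotated starts, and the window shown precedes the most upstream. Capitals mark ACGTG on either strand (CACGT on the strand shown), the core of the element bound by hypoxia-inducible factors, and CACGTG, the E-box bound by MYC and its relatives, contains it on both strands. All 4 read 5′ to 3′ on the strand of the gene.
Hk2 (chr6:82774455-82774704, minus strand): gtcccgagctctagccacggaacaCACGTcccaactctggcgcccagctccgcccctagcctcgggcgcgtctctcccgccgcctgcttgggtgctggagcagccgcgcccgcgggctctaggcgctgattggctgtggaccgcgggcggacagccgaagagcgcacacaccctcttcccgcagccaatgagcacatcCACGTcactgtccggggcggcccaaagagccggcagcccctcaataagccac
Pgam1 (chr19:41911621-41911870, plus strand): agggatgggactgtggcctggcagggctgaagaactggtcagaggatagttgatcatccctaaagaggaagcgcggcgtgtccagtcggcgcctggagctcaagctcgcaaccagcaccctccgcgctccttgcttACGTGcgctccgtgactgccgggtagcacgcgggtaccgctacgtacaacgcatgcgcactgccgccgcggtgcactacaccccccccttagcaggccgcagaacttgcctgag
Eno3 (chr11:70656926-70657175, plus strand): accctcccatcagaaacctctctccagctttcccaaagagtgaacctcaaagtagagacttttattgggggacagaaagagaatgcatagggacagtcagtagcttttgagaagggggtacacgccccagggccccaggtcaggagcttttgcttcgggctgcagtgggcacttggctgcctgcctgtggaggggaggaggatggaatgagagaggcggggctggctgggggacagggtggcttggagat
Pfkm (chr15:98092339-98092588, plus strand): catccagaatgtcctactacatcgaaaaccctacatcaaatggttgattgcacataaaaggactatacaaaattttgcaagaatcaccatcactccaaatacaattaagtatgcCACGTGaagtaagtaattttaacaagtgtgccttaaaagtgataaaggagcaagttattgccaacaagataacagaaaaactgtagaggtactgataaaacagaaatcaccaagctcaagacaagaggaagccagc
Hk2 held 2 matches and Pgam1 held 1. Eno3 held 0, and Pfkm held a CACGTG, which counts as a match on each strand. Windows were found for 31 members, all but Slc2a3. Of their 45 windows, 14 (31.1%) held ACGTG, while 16.6% of all 32851 windows did. CACGTG stood in 4 member windows (8.89%) and in 6.02% of all windows. Median GC content was 59.6% in the member windows and 52.4% in all windows. The 11 members with ACGTG in a window went both ways: Pfkm and Pfkfb3 were called lower, Hk2, Ldha, Pgk1, Pgam1, Pkm, Aldoa and Slc16a1 higher, and Slc2a1 and Slc16a3 were not called.

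The enzymes between hexokinase and triose phosphate differed by isozyme. Gpi1, glucose phosphate isomerase, was at 11.63 and 11.65 in KO and at 11.57 and 11.53 in WT, a difference of 0.09 (SE 0.02, adjusted p = 0.0362). Of the 3 phosphofructokinase subunits, the liver type Pfkl was called higher, at 10.63 and 10.61 in KO and 10.51 and 10.55 in WT (0.09, SE 0.02, adjusted p = 0.0381). The muscle type Pfkm was called lower, at 8.10 and 8.12 in KO and 8.28 and 8.33 in WT (-0.195, SE 0.03, adjusted p = 0.0181). The platelet type Pfkp, at 11.59 and 11.49 in KO and 11.45 and 11.54 in WT, overlapped between groups and was not called (adjusted p = 0.524). Pfkp was the main subunit per kb, at 58.8% and 57.4% of the 3 in KO and 57.5% and 58.3% in WT. Pfkm made up 7.54% and 7.99% in KO and 9.20% and 9.07% in WT.

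Aldoa, the aldolase of most tissues, was at 11.52 and 11.53 in KO and at 11.34 and 11.32 in WT, 1.14-fold higher (0.195, SE 0.01, adjusted p = 0.00626). The brain form Aldoc was far lower in value, at 6.36 and 6.44 in KO and at 6.38 and 6.35 in WT, and its groups overlapped. Tpi1 (chromosome 6, 124810586 to 124814296, minus strand), triose phosphate isomerase, was at 10.71 and 10.58 in KO and at 10.16 and 10.29 in WT. Its 1.34-fold difference was called (0.42, SE 0.07, adjusted p = 0.0187), and its libraries spread more than those of Aldoa and Gapdh.

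The genes that set the level of the activator of phosphofructokinase fell. Pfkfb3 and Pfkfb4 encode bifunctional enzymes that make and remove fructose bisphosphate of the regulatory kind, and Pfkfb3 is the form with the strongest kinase activity. Pfkfb3 was at 10.16 and 10.17 in KO and at 10.33 and 10.37 in WT (-0.185, SE 0.02, adjusted p = 0.00926). Pfkfb4 (chromosome 9, 108991778 to 109032228, plus strand) was at 6.82 and 6.86 in KO and at 7.31 and 7.34 in WT, 0.714-fold of WT (-0.485, SE 0.04, adjusted p = 0.00679). In both genes the KO libraries lay below the WT libraries with a gap wider than the spread within a group. In level per kb, Pfkfb4 stood above 26.2% of tested genes and Pfkfb3 above 62.0%. In their deciles of level, 26.5% and 18.0% of genes were called lower. The other 2 genes of the family, which are no members, were called lower as well, as were 20.3% of all tested genes. Pfkfb2 was at 6.62 and 6.59 in KO and 7.12 and 7.15 in WT (adjusted p = 0.00648). Pfkfb1, named after its values were seen, was at 6.13 and 6.02 in KO and 6.46 and 6.50 in WT (adjusted p = 0.0157). Tigar, whose product removes the same activator, was at 8.93 and 8.91 in KO and 8.95 and 8.99 in WT and was not called (adjusted p = 0.189).

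From glyceraldehyde phosphate to pyruvate, 6 of 8 genes were called higher and 1 lower, where 27.1% higher and 20.3% lower was the background. Gapdh was at 11.04 and 10.98 in KO and at 10.82 and 10.85 in WT (0.175, SE 0.03, adjusted p = 0.0172). Pgk1 (chromosome X, 106187100 to 106203699, plus strand), phosphoglycerate kinase and the first ATP-yielding step, was at 10.33 and 10.31 in KO and at 10.05 and 10.04 in WT, 1.21-fold higher (0.275, SE 0.02, adjusted p = 0.00573). Pgam1, phosphoglycerate mutase, was at 8.77 and 8.76 in KO and at 8.48 and 8.49 in WT, 1.21-fold higher (0.28, SE 0.02, adjusted p = 0.0065). In both genes the libraries of a group lay within 0.02 of each other. Gapdh, Pgam1, Eno1, Ldha and Aldoa have near-identical copies elsewhere in the mouse genome, and how the authors counted shared reads was not given, so their levels are uncertain.

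Bpgm, which makes bisphosphoglycerate from an intermediate of the same stretch and is best known from red blood cells, was at 9 and 9.05 in KO and at 8.74 and 8.73 in WT, 1.22-fold higher (0.29, SE 0.03, adjusted p = 0.00765). Among red cell markers, Hba-a1 was at 4.47 and 4.38 in KO and 4.30 and 4.15 in WT, with both KO libraries above both WT libraries and no call (adjusted p = 0.130). Hbb-bs was at 5 and 4.90 in KO and 4.90 and 4.76 in WT (adjusted p = 0.299), and Alas2 at 3.70 and 3.31 in KO and 3.72 and 3.89 in WT (adjusted p = 0.223). Hba-a2 differed by 0 and Hbb-bt by -0.155, and neither was called. The part of red cell RNA in the Bpgm difference was not tested.

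Enolase, the step before pyruvate kinase, changed in composition. Eno1, the general form, was at 11.32 and 11.29 in KO and at 11.15 and 11.16 in WT (0.15, SE 0.02, adjusted p = 0.00953). Eno3 (chromosome 11, 70657202 to 70662513, plus strand), the muscle form, was at 7.92 and 7.83 in KO and at 8.35 and 8.57 in WT. It fell to 0.667-fold of WT (-0.585, SE 0.09, adjusted p = 0.0169), the largest difference of any member in either direction. The neuronal form Eno2 was at 6.85 and 6.50 in KO and at 6.46 and 6.88 in WT, a spread within each group that left its difference of 0.005 with a 95% interval of -0.60 to 0.61. Per kb, Eno3 made up 10.6% and 10.3% of the 3 enolases in KO and 15.3% and 17.2% in WT, and Eno1 86.5% and 87.4% in KO and 82.4% and 79.8% in WT.

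Pkm, the pyruvate kinase of T cells, was at 12.21 and 12.20 in KO and at 12.03 and 12.02 in WT, 1.13-fold higher (0.18, SE 0.01, adjusted p = 0.00608). Its M1 and M2 splice forms are not separated in a table by gene. Ldha, which favours lactate formation, was at 11.96 and 11.95 in KO and at 11.76 and 11.76 in WT (0.195, SE 0.01, adjusted p = 0.00585). Ldhb, the heart form, was at 9.01 and 9.08 in KO and at 8.96 and 8.94 in WT, which was not called (0.095, SE 0.03, adjusted p = 0.0915). Ldha made up 84.7% and 84.0% of both per kb in KO and 83.3% and 83.5% in WT.

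Pdk1, whose product inhibits pyruvate dehydrogenase and so slows the conversion of pyruvate to acetyl-CoA inside the mitochondrion, went the other way. It was at 10.26 and 10.27 in KO and at 10.45 and 10.42 in WT, a fall to 0.889-fold of WT (-0.17, SE 0.02, adjusted p = 0.00858). Slc16a1, the lactate transporter MCT1, was called higher at 10.43 and 10.39 in KO and 10.19 and 10.27 in WT (0.18, SE 0.04, adjusted p = 0.0273). Slc16a3, the lactate exporter MCT4, was at 9.81 and 9.5 in KO and at 9.15 and 9.49 in WT. KO 2 lay only 0.01 above WT 2, and the difference of 0.335 was not called (SE 0.17, adjusted p = 0.196).

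**Figure D3:**
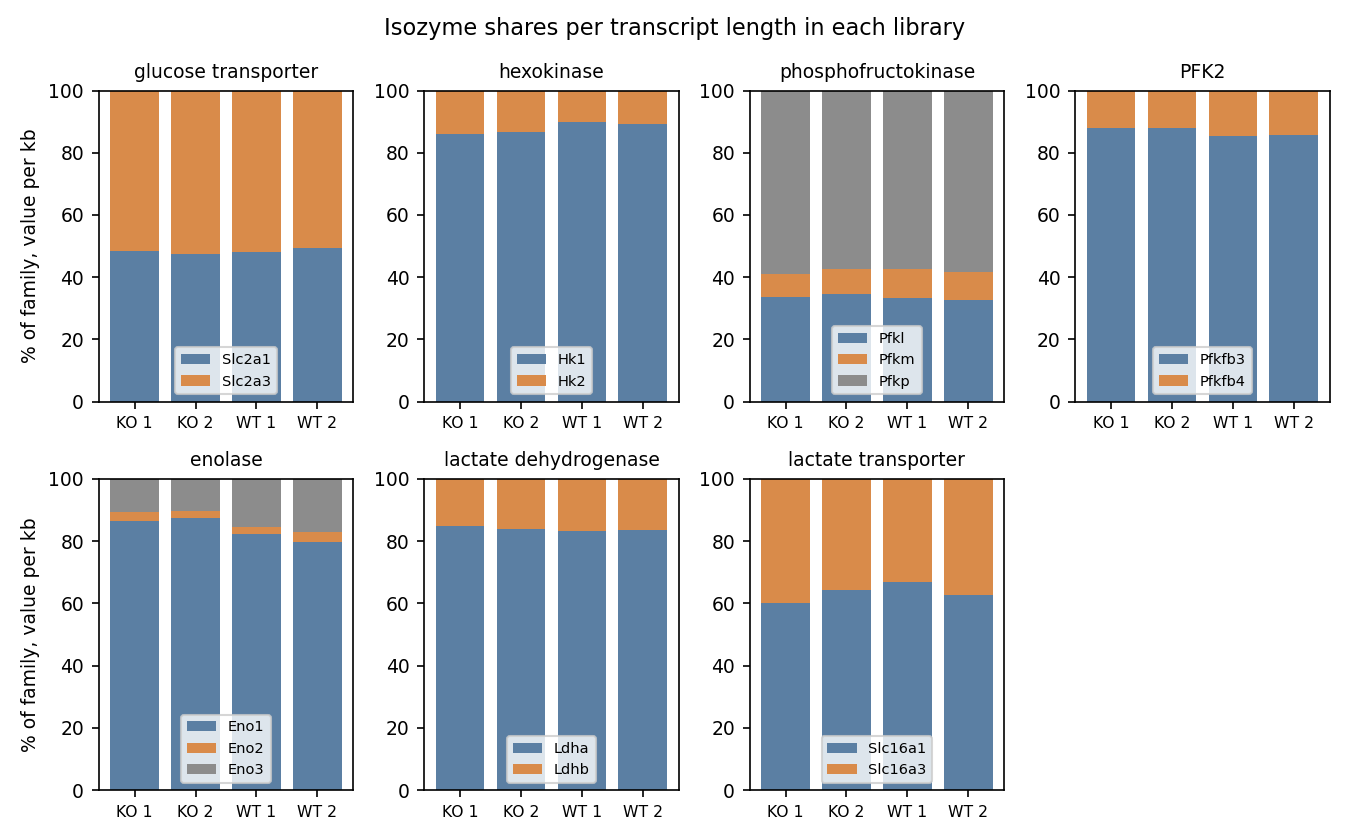
Share of each isozyme in its family in each library (y axis, percent of the summed linear value per kb of the longest coding transcript; KO libraries left, WT libraries right). The Hk2 share is 14.03% and 13.4% in KO and 10.2% and 10.7% in WT, the Eno3 share 10.6% and 10.3% in KO and 15.3% and 17.2% in WT, and the shares of glucose transporters, Pfkp and lactate transporters overlap between groups.

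The pentose phosphate pathway held 4 members called higher and 0 called lower out of 6, beside 27.1% and 20.3% of all tested genes. In the other 2, too, both KO libraries lay above both WT libraries, as they did for 39.9% of tested genes. All 6 members stood in the top 3 deciles of level per kb, where 36.2% to 55.7% of genes were called higher. G6pdx (chromosome X, 74409483 to 74429194, minus strand), glucose phosphate dehydrogenase and the rate-limiting first step, was at 10.45 and 10.45 in KO and at 10.04 and 10.08 in WT. It was 1.31-fold higher (0.39, SE 0.02) and had the smallest p of all members (adjusted p = 0.00545). Pgls, the lactonase of the next step, was at 9.54 and 9.49 in KO and at 9.31 and 9.35 in WT (0.185, SE 0.03, adjusted p = 0.0165). Pgd, which completes the oxidative branch, was at 10.70 and 10.61 in KO and at 10.45 and 10.56 in WT and was not called (0.15, SE 0.05, adjusted p = 0.101).

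In the branch that interconverts sugars without oxidation, Rpia, ribose phosphate isomerase, was at 9.92 and 9.92 in KO and at 9.76 and 9.76 in WT (0.16, SE 0.01, adjusted p = 0.00733). Tkt, transketolase, was at 11.51 and 11.50 in KO and at 11.28 and 11.30 in WT, 1.16-fold higher (0.215, SE 0.01, adjusted p = 0.00597). Taldo1, transaldolase, was at 10.39 and 10.41 in KO and at 10.35 and 10.34 in WT, a difference of 0.055 that missed the threshold (adjusted p = 0.0571). Differences thus spanned 0.055 for Taldo1 to 0.39 for G6pdx within 1 pathway.

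Level and direction were related over all genes, which bears on these abundant transcripts. Ranked by mean value per kb, the tested genes with a known transcript length had a median difference of -0.14 in the lowest decile and 0.09 in the highest, where 55.7% were called higher and 5.03% lower. The highest decile held 8 members (Ldha, Pkm, Gapdh, Eno1, Gpi1, Taldo1, Tpi1 and Tkt), with a median difference of 0.1775, and 7 of them were called higher. Ldha stood above 99.4% of tested genes in level, and Aldoc, the lowest of the 31 members with a length, above 23.1%. The 31 members together made up 0.485% and 0.474% of the summed value per kb in KO and 0.443% and 0.454% in WT.

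After fold changes were corrected jointly for transcript length and mean value, the members' median was 0.07 and 12 of 31 were called higher and 5 lower, while 2664 of 13330 genes were called higher and 2693 lower. Gapdh (0.08), Eno1 (0.05), Gpi1 (0.01), Pfkl (0.05) and Pgls (0.08) were then not called. Ldha (0.11), Pkm (0.09), Rpia (0.07), Tkt (0.14) and Pgk1 (0.18) stayed called with smaller differences, and Hk2 (0.53), G6pdx (0.32), Tpi1 (0.32), Pgam1 (0.23), Bpgm (0.25), Eno3 (-0.63) and Pfkfb4 (-0.45) stayed called within 1.5 times of their uncorrected values. The part of level and length in the uncorrected differences was not tested further.

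**Figure D4:**
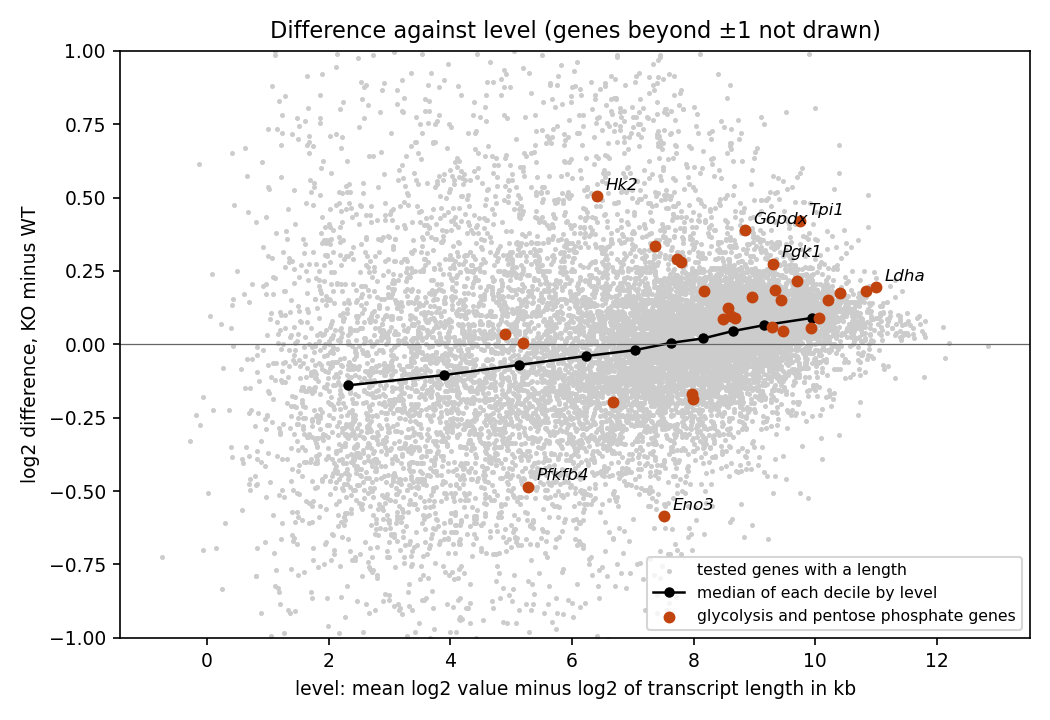
Log2 difference between KO and WT (y axis) against level (x axis, mean log2 value minus log2 of transcript length in kb) for tested genes (grey), the 31 members with a length (orange) and the median of each decile of the genes by level (black line). The black line climbs to 0.09 in the highest decile; Hk2, Tpi1 and G6pdx lie well above it and Eno3 and Pfkfb4 well below.

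Genes around the pathway were read from lists of neighbours. Among 11 tested glycolysis genes outside the member list, calls went to 2 genes as higher and 4 as lower in KO (background 27.1% and 20.3%). Adpgk, a glucokinase that uses ADP, was 1.30-fold higher (11.39 and 11.42 in KO, 11.04 and 11.01 in WT). Galm, which converts the anomers of sugars, was at 8.12 and 8.28 in KO and 8.73 and 8.66 in WT (adjusted p = 0.0136), and the lactate dehydrogenase Ldhd at 4.51 and 4.47 in KO and 5.23 and 5.14 in WT (adjusted p = 0.0073). Among transporters and partners outside the member list, 3 of 6 were called higher and 0 lower (background 27.1% and 20.3%). They were Bsg and Emb, the chaperones of lactate transporters, at differences of 0.175 (adjusted p = 0.00697) and 0.18 (adjusted p = 0.0182), beside Slc37a4 at 0.18 (adjusted p = 0.0238).

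Around pyruvate dehydrogenase, 5 of 14 genes were called higher and 0 lower, a share higher that is near the 27.1% of all tested genes. The complex subunits Dlat and Dld differed by 0.12 and 0.10. Of the other inhibitory kinases, Pdk3 was at 9.76 and 9.73 in KO and 9.49 and 9.55 in WT (adjusted p = 0.0121). Pdk4 was 2-fold higher at very low values, 3.38 and 3.45 in KO and 2.45 and 2.38 in WT, and passed the filter only through the KO libraries, so it had to differ and its call is no support. Of the other 13 genes, 4 were called higher. Of 9 other pentose phosphate genes, 3 were called higher and 3 lower (background 27.1% and 20.3%), with Prps1, which makes the activated ribose of nucleotides, at 10.60 and 10.61 in KO and 10.35 and 10.35 in WT, and H6pd, the dehydrogenase of the endoplasmic reticulum, at 9.27 and 9.27 in KO and 9.46 and 9.48 in WT. Tktl1 differed by -0.715 (adjusted p = 0.00658) and Pgm2 by 0.185 (adjusted p = 0.0221).

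In branches to serine, glycogen, glycerol and hexosamines, 6 of 14 genes were called higher and 2 lower (27.1% and 20.3% of all tested genes). Uap1, which makes the sugar donor UDP-GlcNAc, was 1.23-fold higher, Gbe1, the glycogen branching enzyme, 1.17-fold higher and Ugp2, which makes UDP-glucose, 1.10-fold higher, while Gpd1 was at 3.30 and 3.31 in KO and 3.75 and 3.79 in WT. Gpd1 passed the filter only through the WT libraries, so it had to differ, and of the other 13 genes 6 were called higher and 1 lower.

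Among regulators of glycolysis, 7 of 14 tested genes were called higher and 0 lower, against 27.1% and 20.3% of all tested genes. Of the 14, 9 stood in the top 3 deciles of level per kb, where 36.2% to 55.7% of genes were called higher. Myc was at 11.35 and 11.38 in KO and at 11.08 and 11.07 in WT (0.29, SE 0.02, adjusted p = 0.00573), and Hif1a at 12.67 and 12.64 in KO and 12.41 and 12.39 in WT (0.255, SE 0.02, adjusted p = 0.00608). Epas1, which encodes a second hypoxia-inducible factor subunit, was 1.75-fold higher, at 9.72 and 9.60 in KO and 8.87 and 8.84 in WT. Egln3, an oxygen-sensing prolyl hydroxylase that is itself induced by hypoxia, was 2.04-fold higher, at 9.67 and 9.67 in KO and 8.65 and 8.63 in WT. Of 17 tested genes known to be induced by hypoxia, Egln1 and Egln3 of the regulator list among them, 9 were called higher and 2 lower, against a background of 27.1% and 20.3%, and their median difference was 0.185, against 0.015 over all tested genes. They included P4ha1 (0.455), Bhlhe40 (0.35) and Mxi1 (0.315). Ddit4 and Car12 of this list were called lower. Of the 17 genes, 8 stood in the top 3 deciles of level per kb, where 36.2% to 55.7% of genes were called higher. The list holds none of the 32 members, of which 18 were called higher and 5, Pfkfb3, Pfkfb4 and Pdk1 among them, lower.

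**Figure D5:**
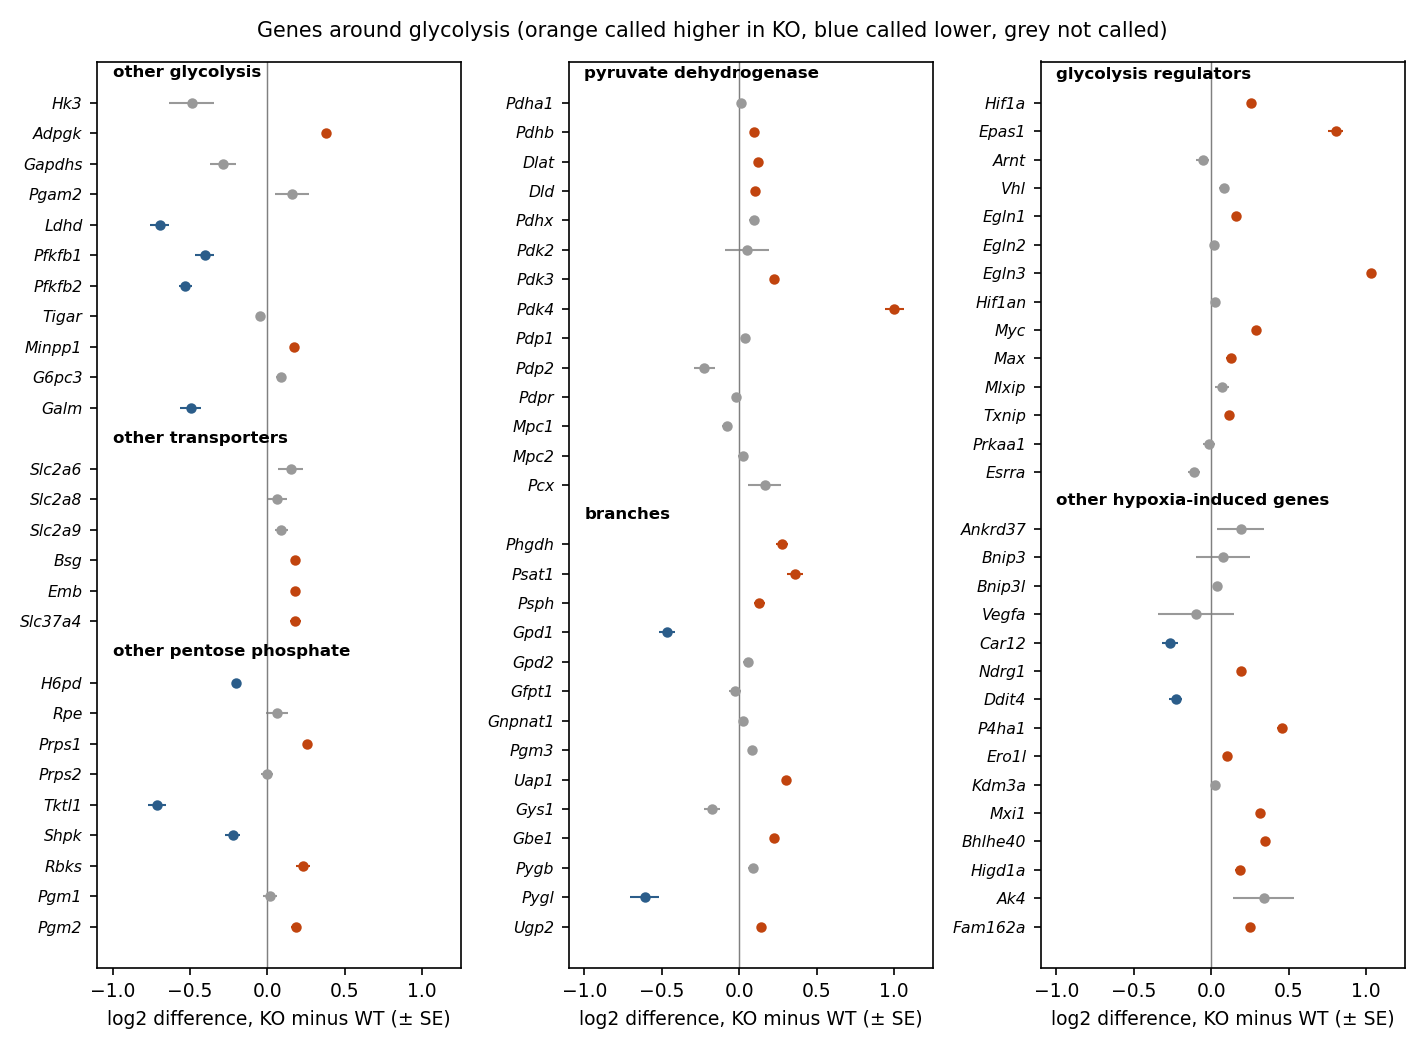
Log2 difference between KO and WT (x axis, ± SE of the limma fit) for the tested genes of the lists around glycolysis, coloured by call. Orange points, called higher in KO, include Egln3 (2.04-fold) and Epas1, and blue points, called lower, include Pfkfb1, Pfkfb2, Ldhd and Tktl1; Egln1 and Egln3 are drawn with the regulators only.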

How the data were processed

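Poly-A RNA of sorted Treg cells was sequenced in 4 libraries (2 KO, 2 WT), prepared with an Illumina TruSeq kit per the labels' protocols. The authors deposited log2 normalised counts with 2 decimals. STAR, DESeq2 and mm10 are named in the submitters' processing notes. Their versions, the annotation, strand use, duplicate handling and transform are not given in the sources used here. Low values hardly spread, so differences of low genes may be understated. No counts were recovered, so depth is unknown and no counting interval is given.

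Genes with a linear value (2 to the power of the deposited value) of at least 10 in at least 2 libraries were tested with limma 3.58.1 in R 4.3.3 (two-sided, genotype only, mean-variance trend, Benjamini-Hochberg over 13685 genes). The fit was tested on simulated data whose libraries deviated independently, so that test cannot show what mirrored deviations do to p-values. SEs and 95% intervals are from this fit. Positions and longest coding transcripts were those of GENCODE M21 on GRCm38 (mm10), with 97.4% of tested genes matched, read with Python 3.11.15. Aldoa stands on more than 1 GENCODE record and has no value per kb. In 58 rows the symbol was a date or stood on more than 1 row, and these were kept in tests but not in lists, which drops Itgam from the myeloid markers. A red cell marker is not reported here.

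Members and lists were chosen with earlier results of these data known. All members are named. Of the other lists, up to 4 called genes with the smallest p are named. Alternatives were other filters, a pseudocount, scalings, variance priors, a replicate term, stricter thresholds, a length and mean correction and each library left out.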

Additional observations from a re-analysis of the deposited data

How the results depend on the processing

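The 18 higher and 5 lower members stayed within 1.5 times of these counts, with 12 to 18 higher and 5 lower, without a filter, at a minimum of 100, after adding 10 to linear values, after quantile or median scaling, with either other variance prior and after the length and mean correction. Aldoc fell below the minimum of 100 and Aldoa had no length. Over all genes, the main fit called 3703 higher and 2778 lower. Without a filter these were 4610 and 3083 of 28334, and at a minimum of 100, 3215 and 1788 of 9867. Adding 10 gave 3693 and 2763, and the other priors 3269 and 2640 or 3619 and 2718. After quantile scaling 3029 were higher and 3067 lower, and after median scaling 2983 and 3250. The length and mean correction gave 2664 and 2693 of 13330. Lower calls outnumbered higher ones after both scalings and this correction. No called member changed sign after quantile or median scaling or after the length and mean correction. In the other runs the sign of a called member could not change. Its difference stayed the same there, or its groups did not overlap. An adjusted p under 0.01 left 2213 of 13685 tested genes (1365 higher and 848 lower), with 11 members higher and 3 lower. A limit of 1.2-fold left 2996 tested genes (1334 higher and 1662 lower), with 6 members higher and 2 lower. The members' median of 0.15 was 0.110 after quantile scaling, 0.12 after median centring and 0.0727 after the length and mean correction, where the median of all genes was -0.00375, -0.015 and -0.00628.

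The labels do not say what a replicate number marks, and same-numbered libraries deviated in opposite directions (r = -0.91). With the replicate block, 0 tested genes and 0 members in either direction were called at 0.05. At 0.1 it called only 2203 tested genes (1363 higher and 840 lower), with 11 members higher and 3 lower. This loss belongs to the limit on every p-value given above and does not measure the size of an effect. The crossed pairing, chosen after seeing the data, called 9728 of 13685 tested genes (5282 higher and 4446 lower), and 23 members higher and 5 lower. With mirrored deviations this pairing takes up much of the spread within groups, so its larger counts are no support. Without each library in turn, counts of calls were 0 for tested genes and for members in both directions in all 4 fits (1 residual degree of freedom, the lone library taken to vary like the other group), and the median was 0.125 to 0.1725. All 23 called members kept their sign in these fits, which is no support, since groups without overlap cannot change sign when 1 library is dropped. Aldoc, Eno2 and Pfkp, whose groups overlapped, changed sign. Depth is unknown, so what it limits cannot be stated.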
